A study of Mus musculus with 8 samples.

Results

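The 9 genes described here take part in the burning of fatty acids or in the response of the liver to fasting: Cpt1a, Cpt2, Pdk4, Acadl, Acadvl, Hadha, Ehhadh, Fgf21 and Angptl4. They were chosen by name. Each was read from a probe whose platform annotation gives exactly 1 gene symbol, and the brightest such probe by mean log2 level would have been taken, but each gene had 1. They are 9 of the 13840 genes with such a probe, on arrays of 33012 probes.

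The samples were 8 arrays, each of RNA pooled from 6 male mice: liver and hypothalamus, of the congenic strain B6.CAST-17 or of C57BL/6J (B6 below), after 24 h of 2-choice diet or on chow. B6.CAST-17 is homozygous for chromosome 17 sequence from the CAST strain on the B6 background, and the sources used here do not give the limits of the donor segment. Under 2-choice the mice could eat from a carbohydrate source and a fat source, each holding 78% of that macronutrient with 22% protein. A time of 4 h before lights out is on record for the 2-choice pools, and none for the chow pools. For each strain, 20 to 25 mice had passed a 10 day test of diet choice, and those with the most extreme intake were kept and spent 6 weeks back on chow, so the pools hold selected mice. Liver congenic 2-choice, liver B6 2-choice, liver congenic chow, liver B6 chow and the same 4 combinations in hypothalamus had 1 pool each. No pool was repeated, so errors come from how the pairs of pools differ, and p-values measure only that spread.

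Fatty acids reach the mitochondrial matrix through the carnitine shuttle, are cut there in cycles of beta-oxidation that start with an acyl-CoA dehydrogenase, and in the fasted liver yield acetyl-CoA for ketone bodies. Very long chains are first shortened in peroxisomes. In mice the nuclear receptor PPAR alpha raises transcription of many of these genes during a fast, when the liver turns from glucose to fat and secretes signals such as FGF21.

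RefSeq lists a promoter window for 8 of the 9 genes on build GRCm38.p6, and Angptl4 is named only. The windows of 4 of them are shown, 250 bases before the listed transcript start, 5′ to 3′ on the strand of the gene: Cpt1a and Acadvl because they held the nuclear receptor half-site AGGTCA, Fgf21 because it held an E-box and a TATA box, and Pdk4 because its levels varied most among the liver pools. Capitals mark AGGTCA, the E-box CACGTG, the TATA box TATAAA and the motif CCAAT on either strand. The windows lie at chr19:3323051-3323300 (Cpt1a, plus strand), chr11:70015429-70015678 (Acadvl, minus strand), chr7:45615491-45615740 (Fgf21, minus strand) and chr6:5496279-5496528 (Pdk4, minus strand).
Cpt1a: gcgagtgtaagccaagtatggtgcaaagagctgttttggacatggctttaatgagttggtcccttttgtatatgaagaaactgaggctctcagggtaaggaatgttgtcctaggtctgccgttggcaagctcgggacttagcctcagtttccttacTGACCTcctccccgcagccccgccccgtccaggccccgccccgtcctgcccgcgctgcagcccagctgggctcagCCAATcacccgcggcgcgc
Acadvl: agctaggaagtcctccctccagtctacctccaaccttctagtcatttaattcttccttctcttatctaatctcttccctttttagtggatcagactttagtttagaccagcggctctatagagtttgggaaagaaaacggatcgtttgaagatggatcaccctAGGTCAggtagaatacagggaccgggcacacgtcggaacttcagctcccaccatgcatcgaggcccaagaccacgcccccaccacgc
Fgf21: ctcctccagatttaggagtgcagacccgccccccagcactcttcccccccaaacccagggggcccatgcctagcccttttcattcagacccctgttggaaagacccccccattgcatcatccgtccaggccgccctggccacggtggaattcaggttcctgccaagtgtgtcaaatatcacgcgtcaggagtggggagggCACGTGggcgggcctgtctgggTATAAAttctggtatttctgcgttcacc
Pdk4: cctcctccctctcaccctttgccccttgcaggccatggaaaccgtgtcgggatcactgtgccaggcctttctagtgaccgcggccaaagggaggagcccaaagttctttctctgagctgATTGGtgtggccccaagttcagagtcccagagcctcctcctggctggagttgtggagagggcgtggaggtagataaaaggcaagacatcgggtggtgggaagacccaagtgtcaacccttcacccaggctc

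The window and start used for Cpt1a lie inside the listed span of its gene (chr19:3322326-3385735), not at its outer end. AGGTCA lay 94 to 89 bases before the start of Cpt1a on the opposite strand (read there as TGACCT) and 87 to 82 bases before that of Acadvl. Of 32851 windows of the same length in the table, 14% held it on either strand. The longer AGGTCANAGGTCA, a direct repeat of the half-site bound by PPAR alpha, was in 0 of the 8 windows and in 0.0335% of all. Fgf21 held CACGTG 50 to 45 bases and TATAAA 28 to 23 bases before its start, motifs found in 6.02% and 12.4% of all windows. CCAAT was in the windows of Cpt1a, Pdk4 and Ehhadh (33.8% of all). The GC box GGGCGG, not capitalised, was in 6 of the 8 (32.7% of all) and shared 1 base with CACGTG in that of Fgf21. These matches describe letters only.

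The tissue labels were borne out by marker genes. The mean log2 level of 7 hepatocyte markers was 20.23 to 20.66 on the liver arrays and 9.03 to 10.47 on the hypothalamus arrays. That of 7 neuron markers was 9.13 to 9.41 in liver and 14.51 to 14.88 in hypothalamus, although the probe of Snap25, a synaptic protein of neurons, was dim there as well (7.55 to 9.26). Titles and sample characteristics agree on the groups, while some free-text descriptions name another tissue, strain or diet. The hypothalamus chow pair goes against its strain labels at 2 chromosome 17 genes of fatty acid metabolism. Decr2, a peroxisomal reductase of unsaturated fatty acids, was lower in the congenic pool of the 2-choice and chow liver pairs (-2.32 and -2.63, log2) and of the hypothalamus 2-choice pair (-3.26), but higher in the hypothalamus chow pair (1.38). Cyp4f14, a fatty acid hydroxylase, gave -1.53, -1.79 and -2.96 in those pairs and 2.69 in the hypothalamus chow pair. Results that rest on the pools labelled hypothalamus congenic chow and hypothalamus B6 chow are therefore given with and without them. Where a sign rests on them, the value with their strain labels exchanged is given as well, and the labels as deposited define the groups throughout.

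The authors' intensities were brought to a common distribution within each pair of strains, but not across diets. Median intensity was 702 on both liver 2-choice arrays and 700 on both liver chow arrays, against 1338 and 560 on the hypothalamus 2-choice and chow arrays. A diet difference and one between these scalings therefore cannot be told apart. Levels below are log2 intensities after quantile normalization over the 4 arrays of a tissue, and a probe was tested in a tissue where its mean reached the 40th percentile there (9.04 in liver, 9.26 in hypothalamus). By that filter 8 of the 9 genes were tested in liver, all but Fgf21, and 7 in hypothalamus, all but Fgf21 and Cpt1a. Levels of different probes on one array are not on a common scale, so only levels of the same probe are set side by side.

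**Figure D1:**
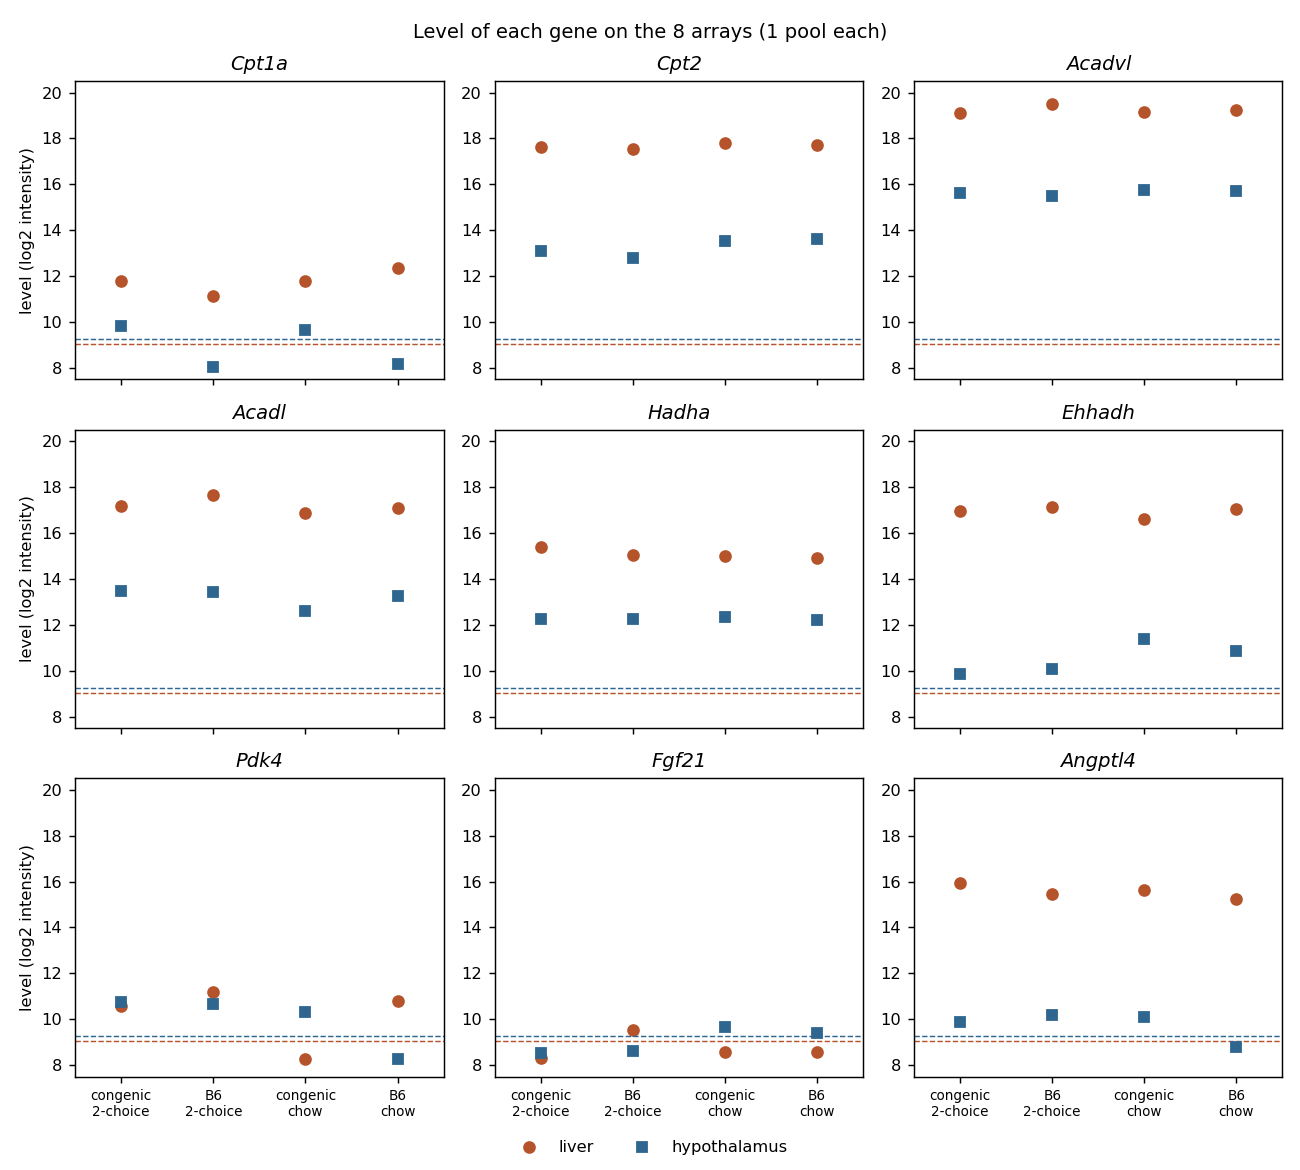
Log2 intensity (vertical axis) of each of the 9 genes on the 8 arrays (horizontal axis), with liver as circles and hypothalamus as squares, each point 1 pool, and dashed lines at the filter level of each tissue (9.04 in liver, 9.26 in hypothalamus). The oxidation enzymes and Angptl4 lie far higher in liver, while the points of Pdk4 and Fgf21 overlap between tissues.

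The first contrast is between tissues, which the design supplies in 4 matched pairs (same strain and diet). Of the 8 genes tested, 7 were higher in liver, and their liver and hypothalamus levels did not overlap. Pdk4 did not pass, and Fgf21 was under the filter. These values come from quantile normalization over all 8 arrays and a limma fit with the pair as a block, with Benjamini-Hochberg adjustment over 19807 probes and a threshold of 0.05. That fit called 24.1% of probes tested higher and 25% lower in liver (49.1% in all), and 23.8% were higher without overlap. In whole tissue, more cells of a type and more RNA per cell cannot be told apart.

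Cpt1a encodes the outer-membrane carnitine palmitoyltransferase, the gate of mitochondrial fatty acid uptake that malonyl-CoA inhibits. Its level was 11.86 ± 0.45 in liver and 8.84 ± 0.86 in hypothalamus (SD, n = 4 each), 8.09-fold higher in liver (log2 3.02 ± 0.48 SE, limma adjusted p = 0.000414). Both B6 hypothalamus pools lay at the dim end, so the size of this difference depends on values near the floor. Cpt2, which reforms acyl-CoA on the matrix side, averaged 17.16 ± 0.11 in liver and 13.32 ± 0.44 in hypothalamus, 14.3-fold higher (log2 3.84 ± 0.19, limma adjusted p = 4.97e-08).

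Both dehydrogenases and the trifunctional protein subunit were higher as well. Acadl, the long-chain acyl-CoA dehydrogenase, was 11.2-fold higher in liver (log2 3.48 ± 0.18, limma adjusted p = 9.56e-08). Acadvl, the very-long-chain dehydrogenase of the inner membrane, was 5.84-fold higher (2.55 ± 0.16, limma adjusted p = 4.31e-07), at 18.58 ± 0.14 in liver and 16.03 ± 0.13 in hypothalamus. Hadha, the alpha subunit of the trifunctional protein that carries out the later steps of the cycle, was 6.22-fold higher (2.64 ± 0.20, limma adjusted p = 1.73e-06).

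Ehhadh and Angptl4 showed the widest gaps of the 9. Ehhadh, the bifunctional enzyme of peroxisomal beta-oxidation, averaged 16.47 ± 0.20 in liver and 10.37 ± 0.72 in hypothalamus, 68.6-fold higher (6.10 ± 0.31, limma adjusted p = 7.32e-08). Angptl4, a secreted inhibitor of lipoprotein lipase, averaged 15.27 ± 0.25 in liver and 9.60 ± 0.59 in hypothalamus, 50.9-fold higher (5.67 ± 0.28, limma adjusted p = 5.58e-08). Its hypothalamus mean lay close to the filter level of 9.24, and the pool labelled B6 chow (8.73) under it. The size of this difference therefore depends in part on dim values.

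Pdk4, the kinase that switches off pyruvate dehydrogenase and so spares glucose, was at 10.74, 11.35, 8.28 and 10.97 in the liver congenic 2-choice, B6 2-choice, congenic chow and B6 chow pools. In the same hypothalamus pools it was at 10.59, 10.46, 10.14 and 8.23. A single low chow pool stood in each tissue, and the 4 pair differences ran between -1.85 and 2.74 as labelled (log2 0.48 ± 0.67, limma adjusted p = 0.586). With the strain labels of the 2 hypothalamus chow pools exchanged, they ran between 0.056 and 0.88 and Pdk4 still did not pass (limma adjusted p = 0.399). Without the B6 chow pair the fitted difference was -0.27. Without both chow pairs the same 7 genes passed. Fgf21, the liver hormone of fasting and protein shortage, was dim in both tissues (8.80 ± 0.60 in liver, 8.97 ± 0.51 in hypothalamus) and was not tested.

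**Figure D2:**
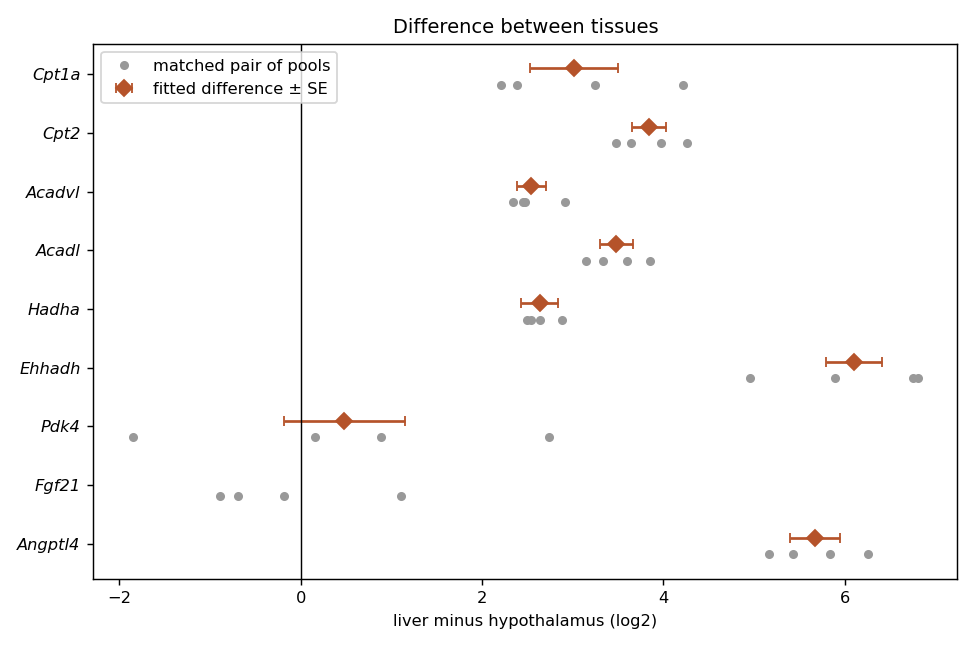
Liver minus hypothalamus difference (horizontal axis, log2) for each gene (vertical axis), with the fitted value ± SE as diamonds and the 4 matched pairs of pools as grey points. Ehhadh (6.10) and Angptl4 (5.67) lie farthest to the right, Pdk4 (0.48 ± 0.67) straddles 0, and Fgf21 has no fitted value.

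The rest of the oxidation pathway was read from lists of genes beside the 9. Of 26 genes tested from the carnitine shuttle, mitochondrial and peroxisomal lists, 23 were higher and 1 was lower in liver by limma, with a median difference of 3.81 against 0.041 over all probes tested. In the mitochondrial list all 8 tested genes were higher, among them Acaa2, the thiolase of the last step (5.53 ± 0.22), and Acads, the short-chain dehydrogenase (4.77 ± 0.24). In the peroxisomal list 12 of 13 were higher, among them the thiolase Acaa1b and the branched-chain oxidase Acox2. Acaa1b averaged 20.23 and Acox2 16.92 in liver, while both hypothalamus means lay at or under the filter level of 9.24, so the size of these differences rests on dim values. Cpt1b and Acox3, also counted as higher, had hypothalamus means under that level (8.78 and 8.86). The gene lower in liver was Cpt1c, the brain form of the palmitoyltransferase (-2.72 ± 0.24), while Slc25a20, the carnitine-acylcarnitine carrier, was higher (5.05 ± 0.51). Slc25a20 averaged 9.74 ± 1.48 (SD) in hypothalamus and its pairs ran from 3.72 to 7.25, so its size depends in part on dim values. Of 11 genes for PPAR alpha and its partners, 6 were higher and 1 lower in liver, with Ppara itself at 7.26 ± 0.30. Of 4 genes called in the list of FGF21 receptors and relatives, Klb, the FGF21 coreceptor, and the receptor Fgfr4 were higher in liver. Their hypothalamus means (7.97 and 8.81) lay under the filter level, against 13.61 and 12.64 in liver. The receptor Fgfr1 (-2.20 ± 0.59) and Kl, the FGF23 coreceptor (-1.93 ± 0.51), were lower, Kl with a liver mean of 8.56, under that level.

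The second contrast asks what 24 h of diet choice did in liver. None of the 9 genes passed. Across the 8 tested, fitted differences (2-choice minus chow) ran between -0.60 and 1.35, with a median of 0.22 against -0.011 over all probes tested. Both strain pairs were higher on 2-choice for 5 genes and lower for 2, where 29.3% and 30.9% of probes tested were. The levels of the 2 diets did not overlap for 4 genes, 2 higher (Acadl, Hadha) and 2 lower (Cpt1a, Cpt2), where 19.6% and 21.6% of probes tested did so. Limma called 0 of 19807 probes (0%) in this contrast, with 1731 at an unadjusted p under 0.05 (8.74%) and a lowest adjusted p of 0.125.

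Acadl was at 17.18 and 17.64 in the congenic and B6 2-choice livers, against 16.85 and 17.10 in the congenic and B6 chow livers. Both 2-choice pools were higher than both chow pools, and the fitted difference of 0.43 ± 0.20 had a 95% interval of -0.03 to 0.89 (limma adjusted p = 0.588). Hadha was at 15.37 and 15.05 on 2-choice, against 15.00 and 14.91 on chow, without overlap but by a smaller margin (0.26 ± 0.20, limma adjusted p = 0.762).

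Cpt1a, in contrast, was at 11.78 and 11.14 in the congenic and B6 2-choice livers, against 11.78 and 12.34 in the chow livers. The congenic pair differed by -0.0031 and the B6 pair by -1.19, so nearly the whole of the fitted -0.60 ± 0.60 (limma adjusted p = 0.830) came from B6. Cpt2 differed by -0.17 in each pair (fitted -0.17 ± 0.17, 95% interval -0.56 to 0.22).

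Pdk4 was at 10.57 and 11.20 in the 2-choice livers, against 8.26 and 10.80 in the chow livers. The congenic chow liver lay under the filter level and the other 3 pools lay between 10.57 and 11.20. The pair differences were 2.31 in congenic and 0.40 in B6 livers, the fit gave 1.35 ± 0.75 (limma adjusted p = 0.639), and without the congenic chow liver it gave 0.40. In that pool the 5 macrophage and Kupffer cell markers measured also had their highest mean, 14.06. It was 11.86 and 12.20 in the 2-choice livers and 12.81 in the B6 chow liver. Congenic and B6 chow livers were apart in Adgre1 (11.89 and 9.44) and Marco (12.42 and 9.17). They were close in Clec4f (15.36 and 15.06), C1qa (15.98 and 15.90) and C1qb (14.63 and 14.45). The part of these markers in the Pdk4 level was not tested.

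The remaining genes overlapped between diets. Angptl4 was at 15.92 and 15.46 on 2-choice, against 15.65 and 15.26 on chow, higher on 2-choice within each strain (0.24 ± 0.38, limma adjusted p = 0.904). Ehhadh was at 16.95 and 17.11, against 16.60 and 17.04 (0.21 ± 0.24, limma adjusted p = 0.855). Acadvl was at 19.11 and 19.48, against 19.16 and 19.24, with pairs of opposite sign (0.10 ± 0.16, 95% interval -0.26 to 0.46). Fgf21 was at 8.30 and 9.51 in the 2-choice livers, against 8.57 and 8.56 in the chow livers, so the B6 2-choice liver alone lay above the filter level.

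**Figure D3:**
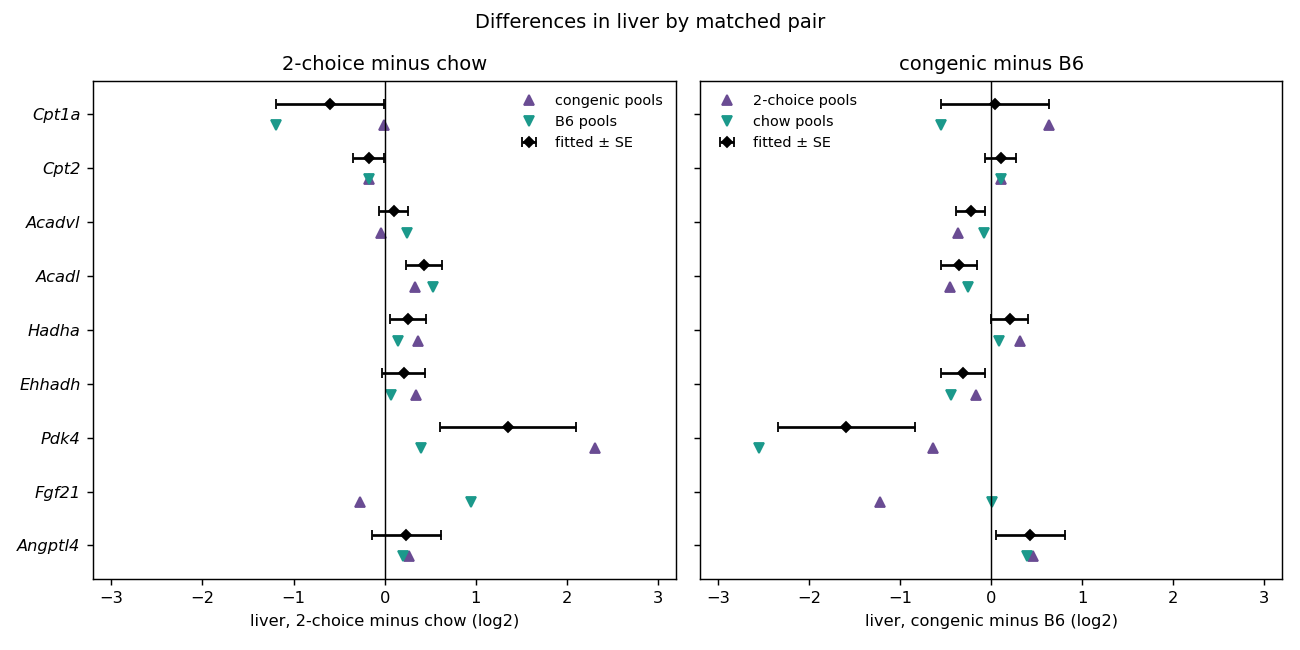
Differences in liver (horizontal axis, log2) for each gene (vertical axis), 2-choice minus chow on the left and congenic minus B6 on the right, with triangles for the matched pairs and black diamonds for the fitted value ± SE. The Pdk4 pairs lie far apart in both panels, which share the congenic chow pool, and no fitted value passed limma's threshold.

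Around these genes, the 26 tested from the 3 oxidation lists showed no common shift in liver, with 4 higher and 7 lower on 2-choice in both pairs, 0 called and a median of -0.05. In the carnitine shuttle list 4 of 5 were lower in both pairs, including the peroxisomal octanoyltransferase Crot (-0.37 ± 0.17). Hadhb, the beta subunit that pairs with Hadha, differed by 0.19 ± 0.15. The isomerase Eci1 differed by 0.47 ± 0.16 (limma adjusted p = 0.445). Ppara differed by 0.53 ± 0.57, and 3 of 11 genes of its list were higher and 4 lower in both pairs.

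Other PPAR alpha targets were likewise spread, 5 higher and 3 lower of 10, from Cd36, the fatty acid translocase (-0.49 ± 0.31), to Fabp2, a fatty acid binding protein (1.50 ± 0.28, limma adjusted p = 0.218). Of the pyruvate dehydrogenase complex and its kinases, 5 of 7 were higher in both pairs and none lower, with a median of 0.44. Pdk1 differed by 0.67 ± 0.21 and Pdk3 by 1.13 ± 0.46. In the fasting response list 6 of 9 were higher in both pairs and 1 lower. G6pc, the last enzyme of glucose output, differed by 1.71 ± 0.24 (limma adjusted p = 0.136) and Igfbp1, a secreted IGF binding protein, by 0.86 ± 0.29. In the list of fed-state lipogenesis 8 of 9 were higher in both pairs, with a median of 0.80, among them Fasn, the fatty acid synthase (1.27 ± 0.23, limma adjusted p = 0.215). None of the genes in these lists passed. The lists were chosen with earlier results of these arrays known.

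**Figure D4:**
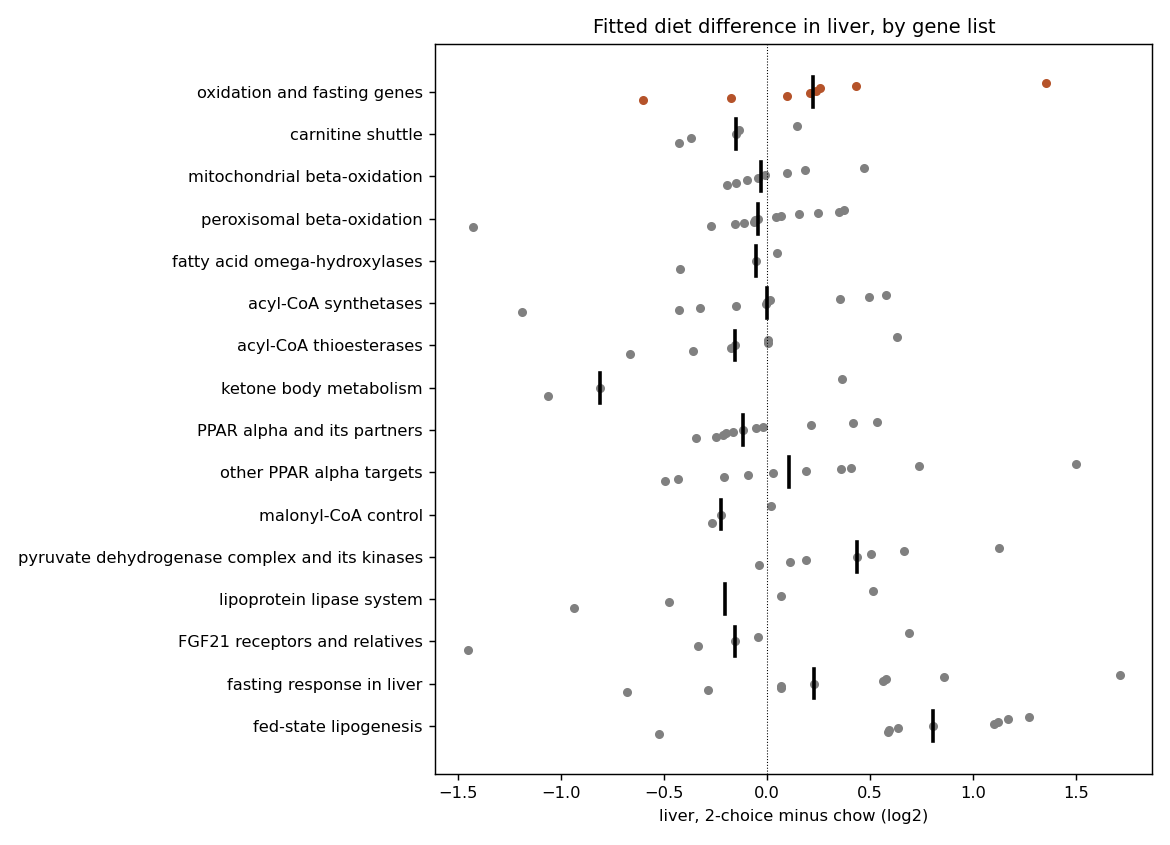
Fitted difference in liver, 2-choice minus chow (horizontal axis, log2), of every tested gene in each list (vertical axis), 1 point per gene, with a bar at the list's median and the fatty acid oxidation and fasting genes in the top line. The medians of the 3 oxidation lists lie near 0, and those of pyruvate dehydrogenase (0.44) and fed-state lipogenesis (0.80) lie to the right.

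The third contrast sets the congenic strain against B6 in liver. None of the 9 genes passed, and limma called 0 of 19807 probes (0%), with 1318 at an unadjusted p under 0.05 (6.65%) and a lowest adjusted p of 0.217. Fitted differences (congenic minus B6) ran between -1.59 and 0.43, with a median of -0.09 against 0.0069 over all probes tested. In both diet pairs 3 genes were higher and 4 lower, where 28.1% and 28.7% of probes tested were. Levels did not overlap for 4 genes, Angptl4 higher and Pdk4, Acadvl and Ehhadh lower, where 16.5% and 18% of probes tested did so.

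Angptl4 is the only one of the 9 genes on chromosome 17 (chr17:33774900-33781575, GRCm38.p6). It was at 15.92 and 15.65 in the congenic 2-choice and chow livers, against 15.46 and 15.26 in the B6 2-choice and chow livers. The congenic pool was higher by 0.46 on 2-choice and 0.40 on chow, and the fit gave 0.43 ± 0.38 (limma adjusted p = 0.909). In a fit of only the 4 liver arrays, which leaves 1 residual degree of freedom, the SE was 0.14 and the adjusted p 0.171. Whether Angptl4 lies within the CAST segment is not given in the sources used here. Of the 4 other genes tested of the lipoprotein lipase system, all were higher in the congenic pool of both pairs, with a median of 0.25 and none called.

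Pdk4 was at 10.57 and 8.26 in the congenic 2-choice and chow livers, against 11.20 and 10.80 in the B6 livers. Both congenic pools were lower than both B6 pools, with differences of -0.64 on 2-choice and -2.54 on chow (fitted -1.59 ± 0.75, limma adjusted p = 0.760). Without the congenic chow pool, which decides the size, the difference was -0.64. The 2 strain pairs thus differed from each other by 1.91, a value with no error in this design. Its relative Pdk3 followed the same order, at 11.21 and 9.57 in congenic livers, against 12.00 and 11.38 in B6 livers (-1.30 ± 0.46, limma adjusted p = 0.693).

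Ehhadh was at 16.95 and 16.60 in congenic livers, against 17.11 and 17.04 in B6 livers (-0.31 ± 0.24, limma adjusted p = 0.887). Acadvl was at 19.11 and 19.16, against 19.48 and 19.24 (-0.22 ± 0.16, limma adjusted p = 0.865). Both were lower in each congenic pool and neither passed. Acadl (-0.35 ± 0.20), Hadha (0.20 ± 0.20) and Cpt2 (0.11 ± 0.17) kept 1 sign over the pairs but overlapped between strains. Cpt1a changed sign between pairs, 0.64 on 2-choice and -0.55 on chow. Fgf21 differed by -1.22 on 2-choice and 0.01 on chow and was not tested.

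In the 3 oxidation lists 5 of 26 genes were higher and 7 lower in congenic livers in both pairs, with 0 called. All 3 fatty acid omega-hydroxylases were lower without overlap. They were Cyp4f14 (-1.66 ± 1.01), Cyp4a14 (-1.21 ± 0.44) and Cyp4f15 (-0.34 ± 0.47), and none passed. Without the hypothalamus chow pair, which enters these SEs, none of the 9 genes passed in either liver contrast: the lowest adjusted p was 0.133 for diet (Acadl) and 0.323 for strain (Acadl), both by limma.

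By likeness over the 4 liver arrays, each gene centred on its own mean, the nearest of 107 list genes to Hadha was Hadhb (distance 0.08, Pearson r 0.99 over 4 arrays) and the nearest to Pdk4 was Pdk3 (0.57, r 0.99). Cpt2 was nearest to the fatty acid transporter Slc27a5 (0.08), Acadl to the nuclear receptor Esrra (0.17), Acadvl to the peroxisomal thiolase Acaa1a (0.16) and Ehhadh to the peroxisomal transporter Abcd3 (0.19). Cpt1a was nearest to Pparg (0.47) and Angptl4 to Hadhb (0.26). These figures rest on 4 arrays that share their scaling and are a description.

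The fourth contrast is the diet difference in hypothalamus, where scaling turned the sign of 4 of the 7 genes tested (Cpt2, Acadvl, Hadha and Ehhadh, all above 0 with values as deposited). The median difference of all probes tested was 0.067 after quantile normalization, 0.79 with arrays centred on their medians and 2.05 with values as deposited. Limma called 97 of 19807 probes after quantile normalization (0.49%, with 70 higher, or 0.353%, and 27 lower, and with 4143, or 20.9%, at an unadjusted p under 0.05). Median centring gave 7167 higher and 466 lower, and deposited values 15377 higher and 53 lower. Each diet pair uses a chow pool whose strain label is in doubt, so no value of this contrast is without them. None of the 7 genes tested here passed. In both strain pairs 2 were higher and 3 lower on 2-choice, the same genes that did not overlap between diets. Of probes tested 33.6% were higher and 29.7% lower in both pairs, and 29.2% and 24.8% without overlap.

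Ehhadh was at 9.84 and 10.05 in the congenic and B6 2-choice hypothalami, against 11.39 and 10.86 in the chow hypothalami. Both 2-choice pools were lower, with differences of -1.55 in congenic and -0.81 in B6 (fitted -1.18 ± 0.24, limma adjusted p = 0.0688). With arrays centred on their medians the difference was -0.70 (limma adjusted p = 0.0459) and with deposited values 0.55 (limma adjusted p = 0.0591), in each case under the median of all probes tested. With the chow strain labels exchanged the pairs were -1.02 and -1.34, the fitted value was the same and the limma adjusted p was 0.0399. Without either B6 pool the difference was -1.55, and without either congenic pool it was -0.81. Each of these values is 1 strain pair alone, with no spread of its own. The liver difference minus the hypothalamus difference was 1.39 ± 0.33 (limma adjusted p = 0.175 over 15466 probes, of which 0.0647% were called).

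Cpt2 was at 13.11 and 12.78 on 2-choice, against 13.54 and 13.61 on chow (-0.63 ± 0.17, limma adjusted p = 0.112), also lower in both pairs. With deposited values it differed by 1.62, under the median of the probes tested (2.05) and over that of all probes (1.34). Acadvl was at 15.63 and 15.49, against 15.75 and 15.69, lower without overlap by a small margin (-0.16 ± 0.16). Under both other scalings its sign turned, to 0.66 and 1.92.

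Acadl was at 13.46 and 13.44 on 2-choice, against 12.59 and 13.24 on chow. It was higher in both pairs (0.54 ± 0.20, limma adjusted p = 0.180) and stayed above the median of the probes tested under every scaling, at 1.54 with median centring and 2.80 as deposited. Pdk4 was at 10.77 and 10.64, against 10.32 and 8.25, where the B6 chow pool alone lay under the filter level (1.42 ± 0.75, limma adjusted p = 0.317). Without that pool the difference was 0.45. Hadha differed little, at 12.27 and 12.25, against 12.34 and 12.22 (-0.02 ± 0.20). Angptl4 was at 9.90 and 10.18, against 10.08 and 8.78, with pairs of opposite sign as labelled and of 1 sign (1.12 and 0.098) with the chow strain labels exchanged. Fgf21, not tested, was at 8.54 and 8.60, against 9.64 and 9.41, lower on 2-choice in both pairs. Cpt1a, not tested, differed by 0.19 and -0.14 as labelled and by 1.64 and -1.58 with those labels exchanged.

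**Figure D5:**
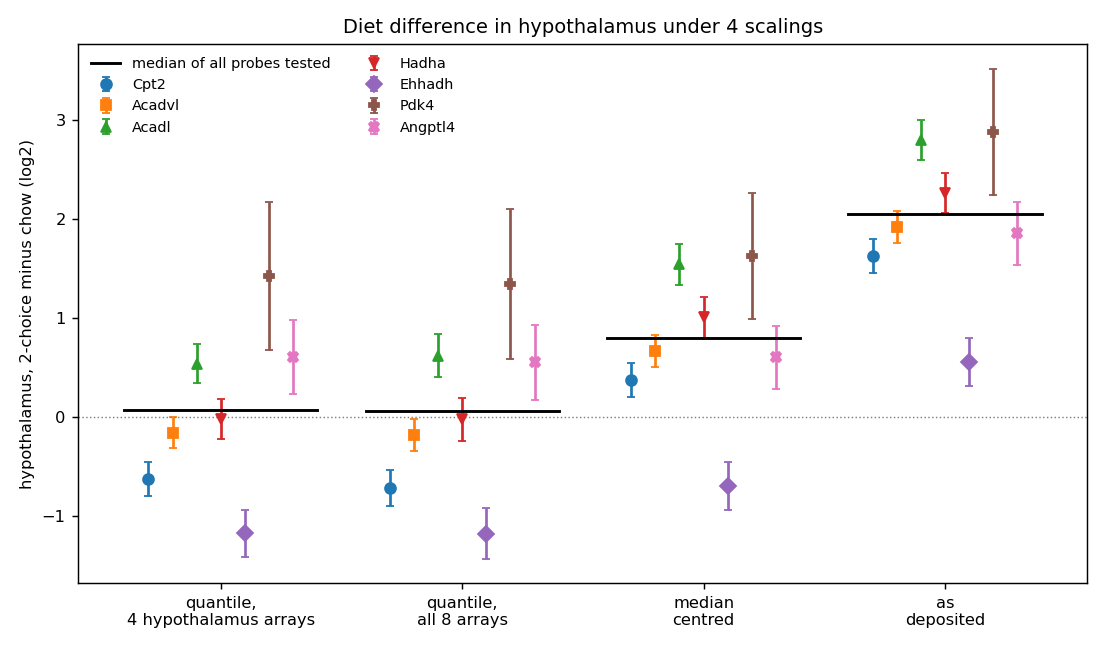
Fitted diet difference in hypothalamus, 2-choice minus chow (vertical axis, log2, ± SE), of the 7 tested genes under 4 scalings of the arrays (horizontal axis), with black lines at the median of all probes tested. The median lies at 0.067 after quantile normalization over 4 arrays, 0.79 after median centring and 2.05 as deposited, and Ehhadh lies under it and Acadl above it each time.

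Markers of other cell types and tissues also differed between diets in the hypothalamus pools. The mean of 4 pituitary markers was 11.56 and 12.63 in the congenic and B6 2-choice pools, against 8.93 and 9.25 in the chow pools. Growth hormone (Gh) was at 12.24 and 14.31, against 8.74 and 8.28. Of the 4 pituitary markers, 3 were higher in both pairs (Gh, Prl and Cga), and 1 marker passed limma's threshold. The chow means of Gh, Prl and Cga lay under the filter level of 9.26, so they were tested only through their 2-choice pools. Tshb changed sign between pairs, at 10.29 and 10.06, against 9.06 and 10.87. The mean of 3 muscle markers was 9.93 and 9.69, against 11.08 and 10.87. The hepatocyte markers averaged 10.47 and 9.76, against 9.03 and 9.59. Of the 5 hepatocyte markers tested, 3 were higher in both pairs and 2 changed sign. Cyp2e1 (limma adjusted p = 0.0317) and Ttr (limma adjusted p = 0.00806), which is also made in the choroid plexus of the brain, rose on 2-choice. Cyp2e1 was at 10.83 and 9.68, against 9.55 and 8.68. Its chow mean lay under the filter level of 9.26, so it was tested only through its 2-choice pools. Apoa2 was at 10.92 and 10.62, against 10.91 and 11.85. All 3 oligodendrocyte markers tested were higher on 2-choice without overlap (median 0.73), as were 3 of 4 endothelial markers (median 1.30), and none of these passed. The part of these cells and tissues in the differences above and below was not tested.

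Of 23 genes tested from the 3 oxidation lists in hypothalamus, 9 were higher and 4 lower on 2-choice in both pairs. Acaa1b passed (fitted 1.67 ± 0.21, limma adjusted p = 0.0187) and no other of them did. It averaged 10.18 on 2-choice, against 8.51 on chow, so it reached the filter level of 9.26 only through its 2-choice pools and its size rests on dim values. Its pairs differed by 1.31 in congenic and 2.03 in B6. Slc25a20 averaged 11.06 on 2-choice, against 8.66 on chow, which also lay under that level (limma adjusted p = 0.0503). Next was Abcd3 (1.37 ± 0.23, limma adjusted p = 0.0505). All 3 genes tested for malonyl-CoA control were lower in both pairs, with a median of -0.68, and 6 of 7 genes of the pyruvate dehydrogenase complex and its kinases were higher, with a median of 0.77. None of these passed. With deposited values both medians were above 0 (1.53 and 2.98), on either side of the 2.05 of the probes tested and over the 1.34 of all probes.

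The last contrast, strain in hypothalamus, rests on the chow pair whose labels are in doubt. Limma called 0 of 19807 probes (0%), with 983 at an unadjusted p under 0.05 (4.96%) and a lowest adjusted p of 0.203, and none of the 9 genes passed. Of the 7 tested, 3 were higher in both congenic pools, none was lower in both and 4 changed sign. With the chow strain labels exchanged 2 were higher (Cpt2, Acadl), 2 lower (Ehhadh, Angptl4) and 3 changed sign. As labelled, 24.4% and 25.1% of probes tested were higher or lower in both pairs. Hadha alone did not overlap between the strains as labelled (0.07 ± 0.20), and 11.9% of probes tested were higher without overlap.

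Cpt1a was under the filter and not tested. It was at 9.83 and 9.64 in the congenic 2-choice and chow hypothalami, against 8.05 and 8.19 in the B6 hypothalami. The pool labelled congenic was higher by 1.78 on 2-choice and 1.45 on chow, with both pools labelled B6 at the dim end of the array. With the chow labels exchanged the pairs were 1.78 and -1.45. In liver the Cpt1a pairs had no common sign. Pdk4 was at 10.77 and 10.32 in congenic hypothalami, against 10.64 and 8.25 in B6 hypothalami, with 0.12 on 2-choice and 2.07 on chow (1.10 ± 0.75, limma adjusted p = 0.823), or -2.07 on chow with the labels exchanged.

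Within the 2-choice pair, that is without the chow pair in doubt, the other differences were 0.34 for Cpt2, 0.02 for Acadl, 0.14 for Acadvl, 0.02 for Hadha, -0.21 for Ehhadh and -0.28 for Angptl4. In the chow pair as labelled they were -0.07, -0.65, 0.06, 0.12, 0.53 and 1.30 in the same order. Acadl, Ehhadh, Angptl4 and Cpt2 thus changed sign between the pairs. When either 2-choice pool was left out Angptl4 differed by 1.30, a value that is the chow pair alone and has no spread of its own.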

How the data were processed

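Each of the 8 arrays (Applied Biosystems, 1 channel, chemiluminescent, DIG-labelled cRNA) measured a pool of 6 mice. The deposited values are linear intensities, 33012 probes per array, with 0 at or below 0. The sources used here do not give the authors' background correction or normalization. Deposited arrays share a distribution within a strain pair. The number of arrays limits the precision. Groups follow sample titles and characteristics. Gene symbols are those of the platform annotation (14411 probes with 1 symbol, 247 with several, 18354 with none listed), and promoter windows and chromosome positions are RefSeq's on GRCm38.p6.

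After log2, quantile normalization was run over the 4 arrays of each tissue, or over all 8 for the tissue contrast (filter level 9.24). Probes under the 40th percentile of the mean were not tested. Limma 3.58.1 in R 4.3.3 fitted a tissue term and, inside each tissue, terms for strain and diet to the 8 arrays (2 residual degrees of freedom). The tissue contrast had the 4 matched pairs as a block (3 residual). Both used eBayes with a trend and Benjamini-Hochberg adjustment over all probes tested, with a threshold of 0.05. The code was tested on simulated data.

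The 9 genes, 15 pathway lists (115 of 151 genes with a probe) and 10 marker lists (42 of 53) were chosen with earlier results of these data known. All 9 genes are described. From a list the text may name, per contrast, up to 6 genes that pass and the 3 with the largest difference among those of 1 sign in both pairs. The nearest genes over the liver arrays are those with the smallest distance between centred log2 values. Other scalings, filters, fits without a trend, fits of a tissue alone and fits without single arrays were tried.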

Additional observations from a re-analysis of the deposited data

Results flagged for a closer look

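In 3 genes, differences ran in opposite directions in the tissues, in both pairs of each. The share of all probes that did so was not counted, so how common this is on the arrays is not known here. The difference between tissues was tested with limma over 15466 probes, of which 10 passed for diet and 0 for strain (836 at an unadjusted p under 0.05), and none of these 3 passed. Values are as labelled.

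Ehhadh differed between diets (2-choice minus chow) by 0.35 and 0.07 in congenic and B6 liver, against -1.55 and -0.81 in hypothalamus. The liver difference minus the hypothalamus difference was 1.39 (SE 0.333, limma adjusted p = 0.175). With deposited values it was -0.46.

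Pdk4 differed between strains (congenic minus B6) by -0.64 on 2-choice and -2.54 on chow in liver, against 0.12 and 2.07 in hypothalamus, a difference of -2.69 (SE 1.07, limma adjusted p = 0.796). In each tissue 1 chow pool was far below the other 3. The 2 low pools are congenic in liver and labelled B6 in hypothalamus, where the chow labels are in doubt. With those labels exchanged the hypothalamus values were 0.12 and -2.07, without the opposite directions.

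Acadvl differed between strains by -0.37 and -0.08 in liver, against 0.14 and 0.06 in hypothalamus, a difference of -0.322 (SE 0.227, limma adjusted p = 0.806). With the chow labels exchanged the hypothalamus values were 0.14 and -0.059, again without opposite directions in both pairs.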

How the results depend on the processing

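Each contrast inside a tissue already compares 2 matched pairs, and the tissue contrast has 4 as blocks, so no further pairing was fitted. Taking another probe of a gene gave no value, since each of the 9 genes has 1. The fits without the hypothalamus chow pair or both chow pairs, the exchange of the strain labels of that pair, and the other scalings and filters of the difference between tissues, were chosen after seeing the data. A fit without a single array of a tissue, or without the hypothalamus chow pair, leaves that tissue no residual degree of freedom. The spread then comes from the pairs of the other tissue and from limma's pooling over probes. Calls in the fits without single arrays rest on that. The number of arrays and the dim probes of Fgf21 and Cpt1a limit the precision. The cause of the changes below was not tested, beyond the fewer arrays or probes that a setting leaves.

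Probes called for diet in liver numbered 0, against 639 (340 higher, 299 lower) with the liver arrays alone, 428 (241 and 187) without the hypothalamus chow pair and 9 to 28 without single arrays. For strain in liver they numbered 0, against 252 (47 and 205), 133 (27 and 106) and 10 to 24 in the same order. For diet in hypothalamus they numbered 97 (70 and 27), against 15430 (15377 and 53) as deposited, 7633 (7167 and 466) with median centring, 202 (132 and 70) with quantile normalization over 8 arrays, 43 (31 and 12) with the stricter filter, 753 (457 and 296) with its arrays alone, 0 without a trend (lowest adjusted p 0.177), 250 (163 and 87) with the chow strain labels exchanged and 713 to 1714 without single arrays. For strain in hypothalamus they numbered 0, against 1 as deposited, 1 with median centring, 21 (6 and 15) with its arrays alone, 48 (30 and 18) without its chow pair, 3 (1 and 2) with its chow labels exchanged and 33 to 1376 without single arrays. Between tissues they numbered 9729 (4773 and 4956), against 5579 (2439 and 3140) as deposited and 9088 (5287 and 3801) with median centring, which moves the median of all probes to 0.246 (0.243 over those tested). The difference between tissues in diet response was called for 10 probes, against 10781 (15 and 10766) as deposited, 3901 (84 and 3817) with median centring, 0 with quantile normalization over 8 arrays, 35 (9 and 26) with the chow labels exchanged and 2 with the stricter filter.

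Of 554 values of the 9 genes under alternatives, 487 kept their sign and side of the threshold, 47 turned sign, 20 newly passed and 0 ceased to pass. Only 7 of the 52 main values passed, all between tissues, so only these could cease to pass. Most values that kept their side were under no call to begin with. No liver diet or strain value of the 9 genes passed under any alternative. Signs turned as deposited for liver diet in Acadvl (-0.042), for hypothalamus diet in Cpt2 (1.62), Acadvl (1.92), Hadha (2.26) and Ehhadh (0.55), and for liver minus hypothalamus diet difference in Cpt2 (-1.87), Acadvl (-1.96), Hadha (-2.05) and Ehhadh (-0.46). They turned with median centring for liver diet in Acadvl (-0.0457), for hypothalamus diet in Cpt2 (0.37), Acadvl (0.66) and Hadha (1.00), and for the difference in Cpt2 (-0.62), Acadvl (-0.71) and Hadha (-0.80). With quantile normalization over 8 arrays Pdk4 turned for the diet difference (0.074) and Acadl for the strain difference (0.032), and Angptl4 turned for strain as deposited and with median centring (0.23). Without the hypothalamus chow pair Acadl (0.022), Ehhadh (-0.21) and Angptl4 (-0.28) turned for hypothalamus strain. With its chow labels exchanged Pdk4 (-0.97), Acadl (0.34), Hadha (-0.046), Ehhadh (-0.37) and Angptl4 (-0.79) turned there, and Ehhadh (0.064) and Angptl4 (1.22) for the strain difference between tissues. Without single arrays the ranges that cross 0 were -0.044 to 0.24 for Acadvl in liver diet, -0.55 to 0.64 for Cpt1a in liver strain, -0.18 to 1.40 for Angptl4 and -0.071 to 0.022 for Hadha in hypothalamus diet, and -0.65 to 0.022 for Acadl, -0.21 to 0.53 for Ehhadh, -0.28 to 1.30 for Angptl4 and -0.069 to 0.34 for Cpt2 in hypothalamus strain. For tissue, Pdk4 ran from -0.27 without the B6 chow pair to 1.26 without the congenic chow pair. Among the 20 that newly passed were, for hypothalamus diet, Pdk4 (2.88), Acadl (2.80) and Angptl4 (1.86) as deposited. Acadl (1.54) and Ehhadh (-0.70) did so with median centring, and Ehhadh (-1.18) with the chow labels exchanged. A further 3 of the 20 were for the liver minus hypothalamus diet difference. Fits without single arrays leave 1 array in a group. For hypothalamus diet their values reached -0.83 for Cpt2, 1.40 for Angptl4 and -1.55 for Ehhadh.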
